A study of Mus musculus with 3 samples.

Results

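The nuclear genes of the mitochondrial respiratory chain were examined in naive CD4+ T cells, helper T lymphocytes that have not met antigen, under 3 culture conditions. They were chosen by symbol: every gene whose only platform symbol begins with Nduf, Uqcr, Cox4 to Cox8 or Atp5, or is Sdha, Sdhb, Sdhc or Sdhd. This gave 89 of the 19935 genes measured. The mice were wild type, of the C57BL/6 strain and 8 weeks old. A first culture received vehicle in medium, another IL-21, a cytokine that signals through STAT3, and the third IL-6 together with TGFb1, the pair commonly used to obtain Th17 cells. Each culture was measured on 1 array. Cytokine doses, culture time, any stimulation of the T cell receptor and the number of mice are not given in the sources used here. With 1 array a group there is no replicate error, no test and no p-value for any difference below, and each difference compares 2 arrays.

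The respiratory chain sits in the inner mitochondrial membrane. Complexes I and II pass electrons from NADH and succinate to ubiquinone, complex III passes them on to cytochrome c, and complex IV hands them to oxygen, while complexes I, III and IV pump protons that ATP synthase uses to make ATP. Most subunits are encoded in the nucleus and a few in mitochondrial DNA. Naive T cells rely largely on this pathway, and activated T cells add a large share of aerobic glycolysis.

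Values are probe set intensities on a linear scale, with medians over all probe sets of 191 in medium, 182 in IL-21 and 188 in IL-6 + TGFb1. Differences are of log2(intensity + 1), which slightly understates those of dim genes. Comparisons used the 11003 genes whose brightest array reached 187, the median of all values. The markers fitted T cells with Cd4 expression, and no marker of the naive state was looked at. The 5 measured CD4 T cell markers, Cd3d, Cd3e, Cd3g, Cd4 and Cd28, were above that level, with summed intensities from 23816 to 25615. All 4 myeloid and 3 NK cell markers were below it, as were 2 of 3 B cell markers (not Cd79b). Of the CD8 T cell markers Cd8a was below it, while Cd8b1 was at 810, 731 and 616 with medium, IL-21 and IL-6 + TGFb1. Its part in the results was not tested. In such bulk samples fewer cells of a type and less RNA per cell cannot be told apart.

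Of the 89 genes, 84 were compared. The 81 genes for commonly expressed subunits and assembly factors all passed, but only 3 of the 8 forms that are mainly restricted to other tissues. The genes were mostly bright: 68 had all 3 values above the 75th percentile of all values. Their median intensity was 2206 in medium, 2282 in IL-21 and 2370 in IL-6 + TGFb1.

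The respiratory chain genes differed little between the cultures. None was 2-fold apart in any comparison, against 0.482% of all compared genes at least 2-fold higher and 0.109% lower with IL-21 than with medium, 0.673% and 0.364% with IL-6 + TGFb1, and 0.273% and 0.191% for IL-21 against IL-6 + TGFb1. A smaller step was therefore used for counts: at least 25% higher or 20% lower, a log2 difference of 0.32 in size, called the 25% step below. With IL-21, 1 of 84 genes was past this step above medium, where 8.6% of all compared genes were, and 0 were past it below, where 3.18% were. With IL-6 + TGFb1, 5 of 84 were higher against a background of 9.32%, and 0 were lower against 3.0%. Between the treated cultures 0 were higher or lower with IL-21, against backgrounds of 3.05% and 2.01%. These are counts past a fold and not tests, and the 2 comparisons with medium share the medium array.

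The median difference of the 84 genes was 0.01 with IL-21, 0.03 with IL-6 + TGFb1, and -0.01 for IL-21 minus IL-6 + TGFb1. Over all compared genes these medians were 0.04, 0.02 and 0.00. The sign of such medians is not settled: with quantile normalization the first was -0.01, and with each array centred on its median the third was 0.04. The spread over genes was narrow. With IL-21, 71.4% of the respiratory chain genes lay within 0.1 of medium, against 50.01% of all compared genes. With IL-6 + TGFb1 the shares were 64.3% and 47.2%. Such a narrow spread was not particular to them. Among lists described below, 100% of TCA cycle, 88.9% of cytosolic ribosome and 74.0% of mitochondrial ribosome genes lay as near with IL-21. With IL-6 + TGFb1 these shares were 64.7%, 79.6% and 54.5%. Assembly factors outside the symbol rule had 48.1% and 51.9%. Exactly equal intensities with IL-21 and medium were found for 18 of the 84 genes, or 21.4%, against 11.6% of all compared genes. The catalytic ATP synthase subunit gene Atp5b, for example, was listed at 12564 on all 3 arrays, and Cox8a, Ndufa12, Ndufb2 and Ndufs3 were also equal on all 3. No source used here states how the values were summarized, so such ties cannot be read as equal expression. They are counted within the narrow spread given above.

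**Figure D1:**
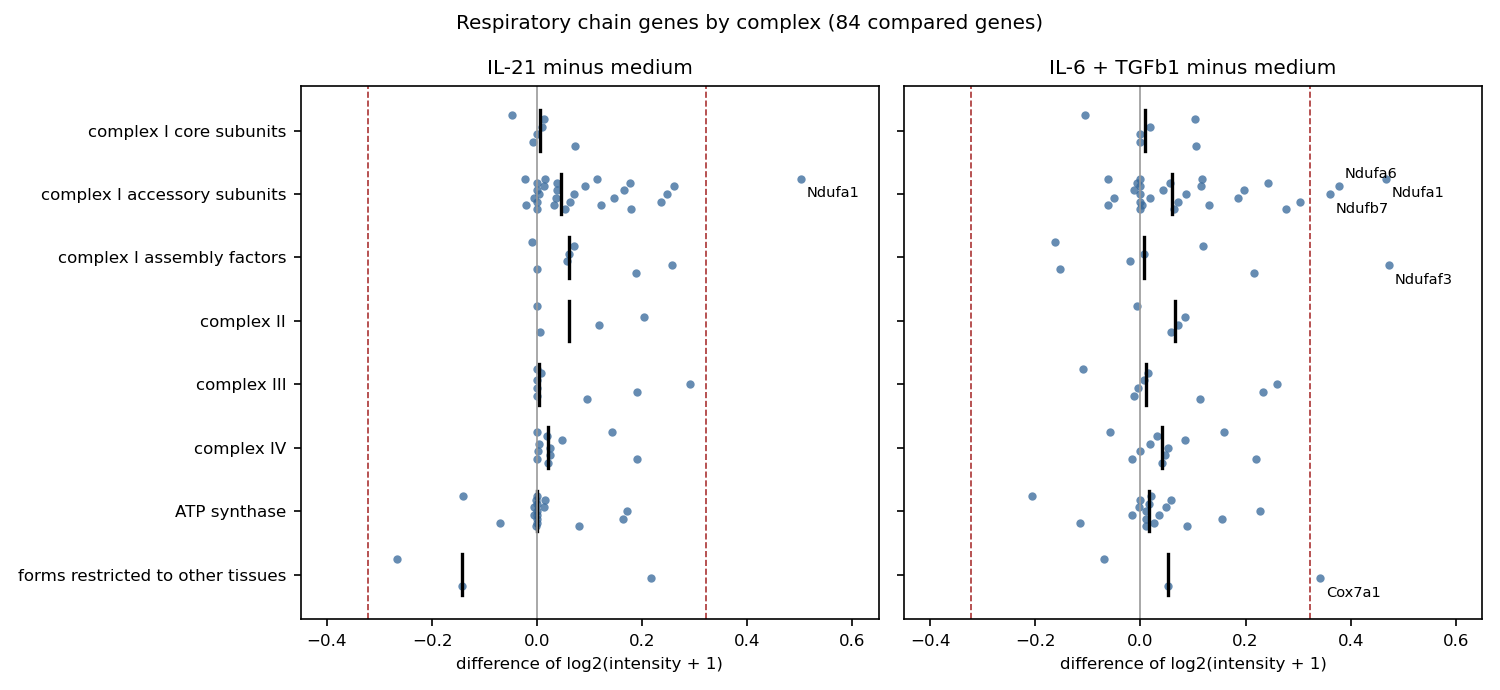
Difference of log2(intensity + 1) of each of the 84 compared respiratory chain genes (points), by complex, for IL-21 minus medium (left) and IL-6 + TGFb1 minus medium (right); black lines are medians over genes and dashed lines mark the 25% step. Points lie close to 0, with Ndufa1 past the step on the left and Ndufa1, Ndufaf3, Ndufa6, Ndufb7 and Cox7a1 on the right; vertical offsets within a complex carry no value.

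Bright genes differ less on these arrays, so the genes were also set beside others grouped by brightness, a view added after the values were seen. Among the 5617 genes reaching the 75th percentile, 0 of 69 respiratory chain genes were past the step above medium with IL-21 (background 6.53%) and 0 lower (1.21%). With IL-6 + TGFb1, 3 of 69 were higher (8.06%) and 0 lower (3.13%), and between the treated cultures 0 were higher (3.22%) or lower (1.46%). The compared genes were then ranked by mean intensity into 4 groups of equal size, and 58 respiratory chain genes fell in the brightest group of 2751 genes. There the median size of the difference, without its sign, was 0.01 for the 58 genes and 0.05 for the whole group with IL-21, and 0.04 against 0.08 with IL-6 + TGFb1. Between the treated cultures it was 0.03 against 0.06. In each of the 3 comparisons the 58 genes thus differed less than the bright genes as a whole. The bright group spans mean intensities from 1622 to 18176, and brightness was not matched within it. Equal values on 2 arrays were part of this, since 24.1% of the 58 genes and 16.5% of the group were exactly equal with IL-21 and medium. The dimmer groups did not all go this way. In the next group 11 genes had larger median sizes, 0.16 against 0.09 with IL-21 and 0.16 against 0.11 with IL-6 + TGFb1. Between the treated cultures these were 0.07 and 0.06. The 11 genes of the group after had 0.07 against 0.14, 0.06 against 0.14 and 0.07 against 0.07. The 4 in the dimmest had 0.14 against 0.15, 0.14 against 0.12 and 0.17 against 0.07.

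**Figure D2:**
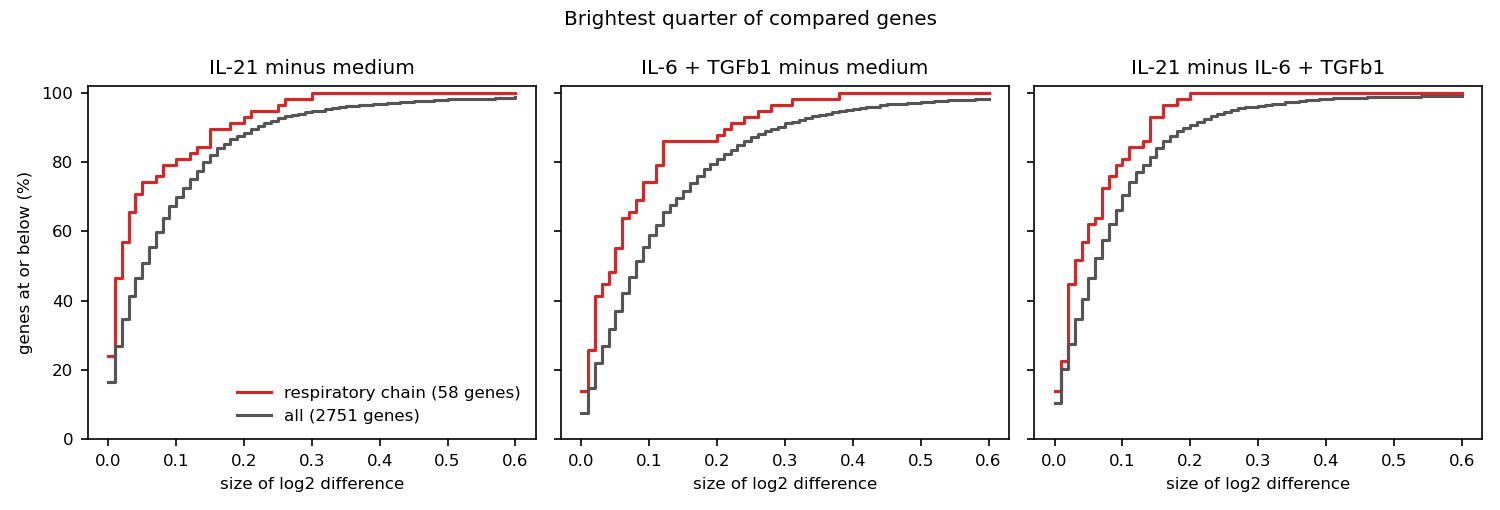
Percentage of genes (vertical axis) whose log2 difference is at or below the size on the horizontal axis, for the 58 respiratory chain genes (red) and all 2751 genes (grey) of the brightest of 4 equal groups, in the 3 comparisons. The red line lies above the grey line throughout, with median sizes of 0.01 against 0.05 (IL-21 minus medium), 0.04 against 0.08 (IL-6 + TGFb1 minus medium) and 0.03 against 0.06 (between the treated cultures).

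Complex I, the NADH dehydrogenase, held the gene furthest from medium with IL-21 and the furthest ones with IL-6 + TGFb1. Its 6 core subunits, 28 accessory subunits and 7 assembly factors are also a large part of the 84 genes. With IL-21, Uqcr10 of complex III (0.29) came next. The accessory subunits of complex I surround its catalytic core and stabilise it. Of these 28 genes, 1 was past the 25% step above medium in the IL-21 culture and 3 in that with IL-6 + TGFb1, or 3.57% and 10.7%, against 8.6% and 9.32% of all compared genes. The first share is below the background and the second near it. Their median difference was 0.05 with IL-21 and 0.06 with IL-6 + TGFb1, beside 0.04 and 0.02 over all compared genes. It was 0.01 and 0.02 with quantile normalization, where all compared genes had -0.01 and 0.00. Median centring moves every gene of an array alike and gave 0.11 and 0.08, beside 0.10 and 0.05 over all compared genes.

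Ndufa1, an accessory subunit of the membrane arm that is needed to assemble the complex, had an intensity of 475 in medium, 673 in IL-21 and 657 in IL-6 + TGFb1. Both treated arrays were above medium and close to each other. It was 1.42-fold higher with IL-21 (0.50) and 1.38-fold higher with IL-6 + TGFb1 (0.47), and its difference ran from 0.38 to 0.57 and from 0.38 to 0.49 over the processing settings tried. Ndufa6, a subunit of the LYR motif family, was at 1493 in medium, 1771 in IL-21 and 1939 in IL-6 + TGFb1. It lay above medium on both treated arrays and past the 25% step only on the latter (0.25 and 0.38). Ndufb7, a membrane arm subunit facing the intermembrane space, was at 1375, 1465 and 1766 on the medium, IL-21 and IL-6 + TGFb1 arrays. The last stood apart, with a difference from medium of 0.36 against 0.09 with IL-21, although it was 0.31 with quantile normalization, short of the step. The difference between the treated cultures was -0.27 for this gene.

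Ndufaf3, an assembly factor for the early membrane-associated steps of complex I, was at 983 in medium, 1175 in IL-21 and 1364 in IL-6 + TGFb1. Of the 7 assembly factors it was the only one past the 25% step, 1.39-fold higher with IL-6 + TGFb1 (0.47). Its difference with IL-21 was 0.26. Past the step above medium were thus 1 of 7 (14.3%) with IL-6 + TGFb1, against 9.32% of all compared genes, and 0 with IL-21, against 8.6%. For so few genes these are near the background. The other assembly factors went both ways. Ndufaf1 had differences of 0.19 and 0.22 with IL-21 and with IL-6 + TGFb1, while Ndufaf2 (0.06 and -0.15) and Ndufaf6 (0.00 and -0.16) were below medium with IL-6 + TGFb1 alone. The median of the assembly factors was 0.06 with IL-21 and 0.01 with IL-6 + TGFb1, -0.02 and -0.08 with quantile normalization, and 0.13 and 0.03 with median centring. With the brightness filter at the 75th percentile, 2 assembly factors were left, with medians of 0.22 and 0.34.

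The promoters of these 4 genes are shown because their values with IL-6 + TGFb1 were furthest from medium among the commonly expressed members. That of Cox6a1, a complex IV subunit gene, is shown because it was flat (0.02 in each treated culture) and holds the letters of both an NRF1 and an ETS site. That of Ndufs7, a core iron-sulfur subunit (-0.05 and 0.10), shows the YY1 letters. NRF1, the ETS factor GABP and YY1 are known regulators of nuclear respiratory genes. Each window runs from 250 bases before to 50 after the gene's start in RefSeq, build GRCm38.p6, 5′ to 3′ on the gene's strand, with matches in capitals. Ndufa1 is at chrX:37191189-37191488 on the minus strand, Ndufa6 at chr15:82354242-82354541 on the minus strand and Ndufaf3 at chr9:108567387-108567686 on the minus strand. Ndufb7 is at chr8:83566508-83566807 on the plus strand, Cox6a1 at chr5:115348909-115349208 on the minus strand and Ndufs7 at chr10:80249199-80249498 on the plus strand.
Ndufa1: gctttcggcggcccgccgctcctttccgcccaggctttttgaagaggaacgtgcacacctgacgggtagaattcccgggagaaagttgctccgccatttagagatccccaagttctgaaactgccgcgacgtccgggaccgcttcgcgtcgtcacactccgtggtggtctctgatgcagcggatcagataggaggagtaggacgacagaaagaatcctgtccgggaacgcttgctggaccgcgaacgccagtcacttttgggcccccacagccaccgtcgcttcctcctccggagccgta
Ndufa6: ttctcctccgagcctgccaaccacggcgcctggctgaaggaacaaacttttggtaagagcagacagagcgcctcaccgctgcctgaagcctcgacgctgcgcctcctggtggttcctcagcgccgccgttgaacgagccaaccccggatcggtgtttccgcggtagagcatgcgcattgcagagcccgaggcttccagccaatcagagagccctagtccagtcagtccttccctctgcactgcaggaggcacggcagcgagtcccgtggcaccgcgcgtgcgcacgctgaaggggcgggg
Ndufaf3: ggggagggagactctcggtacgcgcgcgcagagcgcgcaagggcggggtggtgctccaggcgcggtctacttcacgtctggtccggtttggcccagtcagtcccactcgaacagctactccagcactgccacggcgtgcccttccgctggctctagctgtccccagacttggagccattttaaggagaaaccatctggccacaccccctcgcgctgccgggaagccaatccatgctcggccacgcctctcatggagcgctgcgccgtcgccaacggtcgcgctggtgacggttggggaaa
Ndufb7: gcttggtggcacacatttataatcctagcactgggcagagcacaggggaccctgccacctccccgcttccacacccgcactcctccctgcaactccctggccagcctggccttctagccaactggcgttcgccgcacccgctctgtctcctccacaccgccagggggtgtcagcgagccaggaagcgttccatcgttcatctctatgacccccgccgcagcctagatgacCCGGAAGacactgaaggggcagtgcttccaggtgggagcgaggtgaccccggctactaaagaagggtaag
Cox6a1: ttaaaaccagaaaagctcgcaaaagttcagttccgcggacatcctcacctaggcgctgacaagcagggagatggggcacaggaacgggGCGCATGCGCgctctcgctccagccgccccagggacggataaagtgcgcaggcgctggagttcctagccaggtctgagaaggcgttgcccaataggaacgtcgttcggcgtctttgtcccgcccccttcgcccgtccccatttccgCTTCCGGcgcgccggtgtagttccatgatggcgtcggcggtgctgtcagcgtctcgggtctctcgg
Ndufs7: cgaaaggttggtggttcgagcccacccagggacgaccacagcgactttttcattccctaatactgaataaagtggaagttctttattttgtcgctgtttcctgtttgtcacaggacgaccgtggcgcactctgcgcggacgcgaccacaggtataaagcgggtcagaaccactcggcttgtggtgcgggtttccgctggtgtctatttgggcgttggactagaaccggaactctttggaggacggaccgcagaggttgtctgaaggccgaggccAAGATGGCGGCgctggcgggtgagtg

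The capitals in Ndufb7 are 1 match to the ETS letters CCGGAAG, from 20 bases before its start. The first capitals in Cox6a1 spell the NRF1 site searched, from 162 bases before its start, and the second are an ETS match on the opposite strand from 16 bases before. The capitals in Ndufs7 spell the YY1 site searched, from base 25 after its start. No match to these letters, on either strand, lay in the windows of Ndufa1, Ndufa6 and Ndufaf3.

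Promoters were matched by Entrez identifier for 73 of the 89 genes. The NRF1 letters were in 7 of them (9.59%), against 1.07% of the 27025 genes with a promoter listed and 2.39% of the 8883 of these that were compared. The ETS letters were in 18 (24.7%), against 9.93% and 20.9%, and the YY1 letters in 4 (5.48%), against 0.755% and 1.89%. NRF1 matches were in Atp5g2, Atp5k, Cox6a1, Ndufa11, Ndufaf4, Ndufaf5 and Uqcrc1, and YY1 matches in Ndufa9, Ndufs4, Ndufs6 and Ndufs7. Among compared members, the 27 with any of these letters had a median difference of 0.02 with IL-21 and 0.06 with IL-6 + TGFb1, and the 43 without had 0.02 and 0.01. These matches are a description and were not tested.

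The other accessory subunits of complex I furthest from medium were also on the higher side. Ndufa11, a membrane arm subunit, was at 2206 in medium, 2641 in IL-21 and 2724 in IL-6 + TGFb1 (0.26 and 0.30). Its other probe set, at 1874, 1874 and 1936, gave 0.00 and 0.05, so the probe sets disagree. Ndufa7 had differences of 0.24 and 0.24 with IL-21 and with IL-6 + TGFb1, and Ndufa2, which has a thioredoxin-like fold, had 0.12 and 0.28. The lowest accessory subunit differences were -0.02 with IL-21 (Ndufs6 and Ndufs4) and -0.06 with IL-6 + TGFb1 (Ndufa5 and Ndufb3). Between the treated cultures, Ndufb10 (0.23), Ndufb3 (0.17) and Ndufv3 (0.15) were highest with IL-21 and Ndufb7, Ndufb9 (-0.20) and Ndufa2 (-0.16) lowest.

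The 6 measured core subunits of complex I, most of which bind FMN or iron-sulfur clusters, were nearer to medium. With IL-21 they lay between -0.05 (Ndufs7) and 0.07 (Ndufs1), with a median of 0.00. With IL-6 + TGFb1 they lay between -0.11 (Ndufs1) and 0.11 (Ndufs8), with a median of 0.01. Ndufs1, the largest iron-sulfur subunit, was at 1492, 1570 and 1387 with medium, IL-21 and IL-6 + TGFb1, so the treated arrays lay on either side of medium. Ndufv1, which binds NADH and FMN, was at 2883, 2901 and 2921, with both differences under 0.03.

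**Figure D3:**
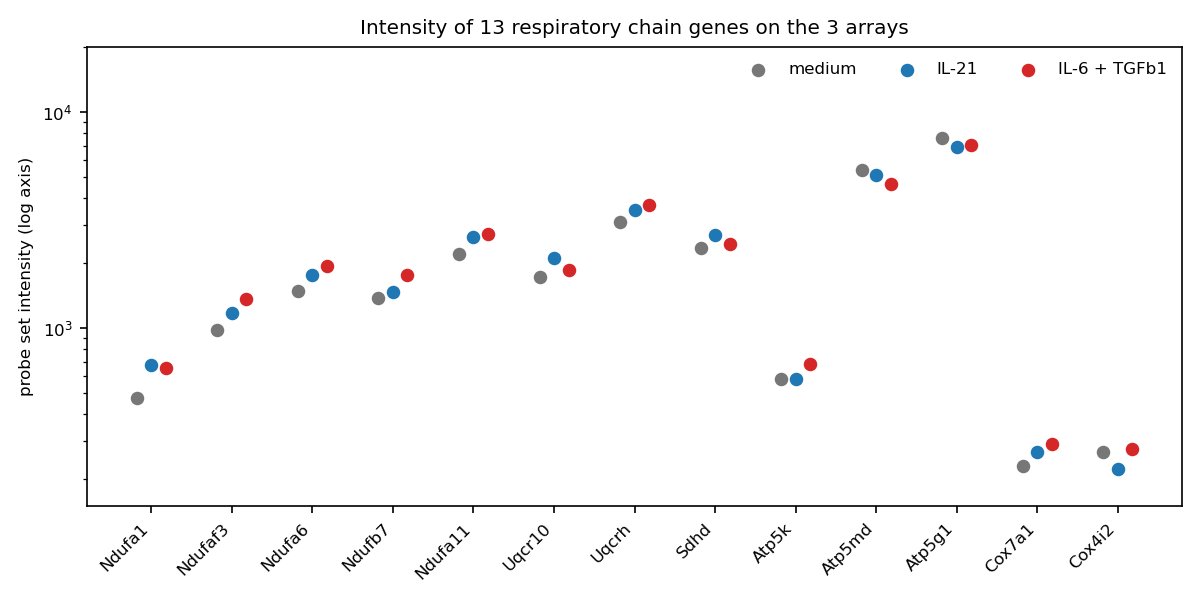
Probe set intensity (log axis) of 13 respiratory chain genes on the medium (grey), IL-21 (blue) and IL-6 + TGFb1 (red) arrays, 1 array each. Ndufa1 reads 475, 673 and 657, and Atp5md 5377, 5120 and 4659; heights of different genes are not comparable because probe sets differ.

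Complex II, succinate dehydrogenase, is shared with the TCA cycle and is encoded by 4 nuclear genes. Sdha, the flavoprotein subunit, was at 5754 in medium, 5773 in IL-21 and 5730 in IL-6 + TGFb1, and Sdhb, the iron-sulfur subunit, at 3015, 3015 and 3137. Both catalytic subunits were thus within 0.06 of medium on both arrays. The membrane anchors were somewhat higher with IL-21. Sdhc was at 1908, 2069 and 2022 (0.12 and 0.08), and Sdhd at 2342, 2698 and 2462 (0.20 and 0.07). None of the 4 genes reached the 25% step. For so few genes this is near the shares of all compared genes, 8.6% and 9.32% higher and 3.18% and 3.0% lower.

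In complex III, the cytochrome bc1 complex, some of the small subunits lay further from medium than the catalytic and core ones. Uqcrfs1, the Rieske iron-sulfur protein, was at 1449, 1449 and 1444, and the core subunits Uqcrc1 and Uqcrc2 were within 0.02 of medium on both arrays. Uqcr10 was at 1720 in medium, 2104 in IL-21 and 1861 in IL-6 + TGFb1 (0.29 and 0.11). Uqcrh, the hinge protein that helps cytochrome c dock, was at 3102, 3541 and 3713 (0.19 and 0.26). Uqcr11 had differences of 0.09 and 0.23. Uqcrq, another small subunit, was flat, at 3004, 3020 and 3019. Uqcrb had equal values with medium and IL-21, and it was the one complex III gene lower than medium by over 0.1, with IL-6 + TGFb1 (-0.11), where its 3 probe sets lay between -0.12 and -0.07. The median over the 8 genes was 0.00 with IL-21 and 0.01 with IL-6 + TGFb1.

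Complex IV, cytochrome c oxidase, had 11 commonly expressed nuclear genes, of which 9 lay within 0.1 of medium in each treated culture. Cox4i1, Cox5a, Cox5b, Cox6a1, Cox6b1, Cox6c, Cox7a2, Cox7b and Cox8a were those 9. Ndufa4, named for complex I but now assigned to complex IV, was at 1864, 2058 and 2170 (0.14 and 0.22). Cox7a2l, a factor that joins complexes III and IV into supercomplexes, was at 534, 609 and 597 (0.19 and 0.16). Its dimmer probe set was at 404, 543 and 585 and gave 0.42 and 0.53, past the 25% step in both, so the size for this gene depends on the probe set. The median of the 11 genes was 0.02 with IL-21 and 0.04 with IL-6 + TGFb1.

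The 17 ATP synthase genes had a median of 0.00 with IL-21 and 0.02 with IL-6 + TGFb1. In the catalytic head, 4 of the 5 genes, Atp5a1, Atp5b, Atp5c1 and Atp5d, were within 0.01 of medium with IL-21. The other, Atp5e, which encodes the epsilon subunit, was at 1046, 1106 and 1166 with medium, IL-21 and IL-6 + TGFb1 (0.08 and 0.16). The membrane part held both the highest and the lowest genes. Atp5k, which encodes subunit e of the dimer interface, was at 584, 584 and 683 (0.00 and 0.23). Atp5l, which encodes subunit g, had 6 probe sets, all above medium with IL-21 by 0.08 to 0.22, and from -0.09 to 0.09 with IL-6 + TGFb1. Atp5mpl had differences of 0.17 and 0.05.

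On the lower side, Atp5md, a small membrane subunit, was at 5377 in medium, 5120 in IL-21 and 4659 in IL-6 + TGFb1 (-0.07 and -0.21). Its 3 probe sets lay between -0.21 and -0.12 with IL-6 + TGFb1. Atp5g1 was at 7597, 6890 and 7014 (-0.14 and -0.12), and its other probe set gave -0.12 and -0.10. This gene and Atp5g2 and Atp5g3 encode the same mature subunit of the rotor ring, and the other genes were within 0.03 of medium on both arrays.

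Several members have more than 1 probe set, which gives the only repeated measurement on these arrays. There were 17 such genes with 42 probe sets. The median distance between a gene's highest and lowest probe set was 0.03 with IL-21 and 0.04 with IL-6 + TGFb1, and the largest were 0.26 for Ndufa11 and 0.37 for Cox7a2l respectively. Ndufb11, a membrane arm subunit, gave 0.01 and 0.18 with IL-21 from its brighter and dimmer probe sets. Ndufc1, an accessory subunit of complex I, gave 0.13 with IL-6 + TGFb1 from both of its probe sets. Those of Atp5h, a stalk subunit of ATP synthase, and of Ndufab1, the mitochondrial acyl carrier protein, were all within 0.03 of medium in both treated cultures. Atp5pb, the peripheral stalk subunit b, gave 0.01 and 0.09 with IL-6 + TGFb1 from its brighter and dimmer probe sets. Over all 629 genes with at least 2 bright probe sets, the gap between the brightest 2 had a median of 0.06 and a 95th percentile of 0.41 with IL-21, and 0.06 and 0.37 with IL-6 + TGFb1. The difference of Ndufa1, from 1 probe set, was above this 95th percentile in both comparisons, and that of Ndufa6 (0.377) and Ndufaf3 with IL-6 + TGFb1. These genes were the highest of the 84 members there. Over all compared genes the 95th percentile of the difference itself was 0.41 with IL-21 and 0.43 with IL-6 + TGFb1. Passing the gap is thus not particular to the members. The gap is an error between probe sets of the same arrays and leaves out the spread between cultures. Probe sets of 1 gene here may read near-identical copies elsewhere in the genome, which their signals cannot separate.

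**Figure D4:**
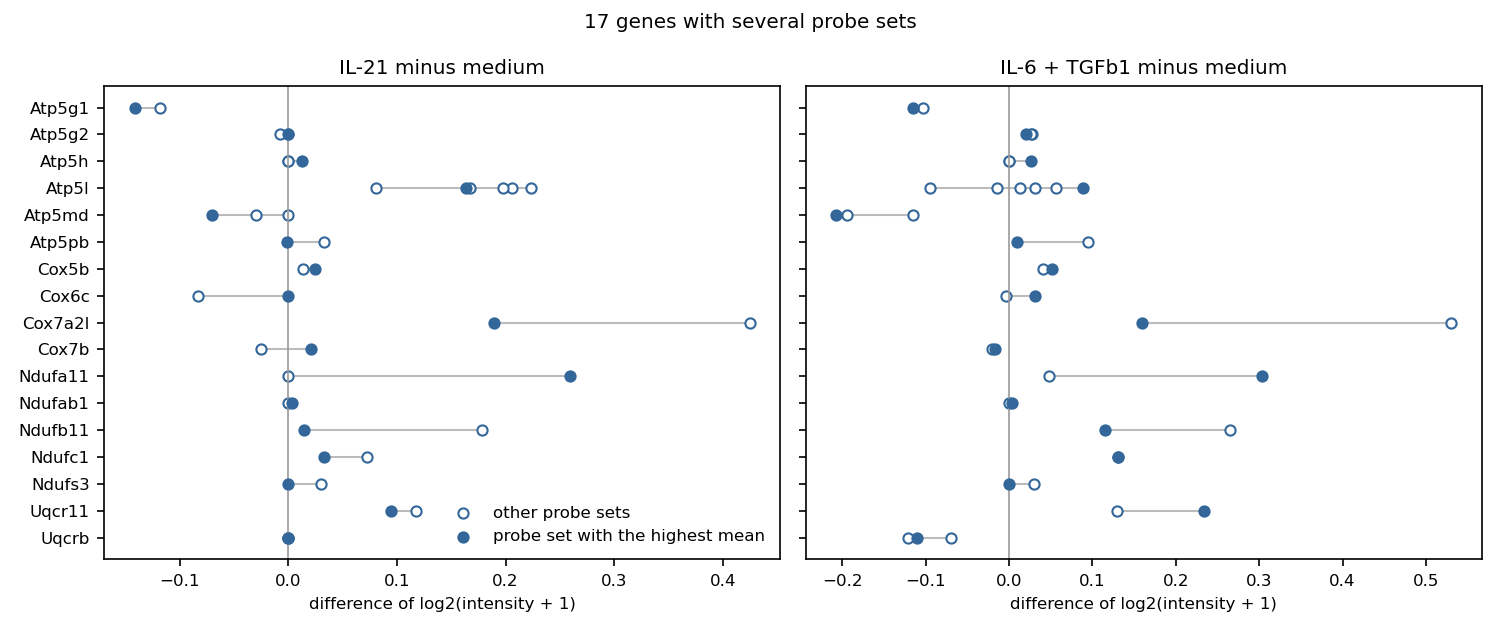
Differences of log2(intensity + 1) for the 42 probe sets of 17 respiratory chain genes, IL-21 minus medium (left) and IL-6 + TGFb1 minus medium (right); filled points are the probe set with the highest mean, which stands for the gene, and open points are the others. Most genes span a few hundredths, while Ndufa11 and Cox7a2l span up to 0.26 and 0.37.

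The 8 subunit forms known mainly from other tissues, such as the muscle forms Cox6a2, Cox7a1 and Cox8b and the testis forms Cox6b2, Cox7b2 and Cox8c, were near or below the brightness level. Cox6b2, Cox7b2, Cox8b, Cox8c and Ndufa4l2 were below it on all 3 arrays, with intensities from 56.2 to 169, so their differences are poorly measured. Cox8b, at 142, 113 and 117 with medium, IL-21 and IL-6 + TGFb1, is an example: its difference of -0.32 with IL-21 was past the 20% mark, at a level where differences are not compared. Cox6a2 was at 410, 371 and 391. Cox4i2, the form linked to low oxygen, was at 268, 222 and 278 (-0.27 and 0.05), and it had the lowest value of all compared members in IL-21 minus IL-6 + TGFb1 (-0.32, just short of the 20% mark). Cox7a1 was at 230, 268 and 292 (0.22 and 0.34). It was the 1 of 3 compared forms past the 25% step, with IL-6 + TGFb1, where 9.32% of all compared genes were. With 3 genes such a share says little.

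Other mitochondrial genes were set beside them, by lists chosen with earlier results of these data known. The mitochondrially encoded subunits had 2 measured genes. COX2 was at 8898, 9427 and 8772 with medium, IL-21 and IL-6 + TGFb1, and ND3 at 5407, 5507 and 5071. Both were within 0.1 of medium. Among 7 other electron carriers, 0 were past the 25% step, with medians of 0.03 and 0.00 with IL-21 and with IL-6 + TGFb1. With so few genes, 0 is near the shares of all compared genes, 8.6% and 9.32% higher and 3.18% and 3.0% lower. Cycs, cytochrome c itself, was at 7832, 7832 and 6578 (0.00 and -0.25), and Cyc1 was listed at 4265 on all 3 arrays. Gpd2, the glycerol phosphate shuttle dehydrogenase, was highest (0.16 and 0.28).

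The 27 assembly factors outside the symbol rule had higher medians, 0.07 and 0.10. At least 25% higher with IL-21 were 4 of them, or 14.8%, against 8.6% of all compared genes. These were Sdhaf4 (0.47), the copper handling factors Cox19 (0.45) and Sco1 (0.39), and Tmem126b (0.37), a complex I assembly factor. With IL-6 + TGFb1 there was 1, Tmem126b (0.38), or 3.7% against 9.32%. The copper chaperone Cox17 was lowest (-0.23 and -0.30). Between the treated cultures Cox20 was at least 20% lower with IL-21 (-0.38), 1 of 27 genes (3.7%) against 2.01% of all compared genes. Sdhaf4 was dim, at 168, 233 and 208.

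Of 16 compared regulators of mitochondrial gene expression, 0 passed the 25% step in either treated culture, and their medians were 0.03 and 0.00. Of all compared genes, 8.6% were higher and 3.18% lower with IL-21, and 9.32% and 3.0% with IL-6 + TGFb1. A list this short cannot tell 0 from such shares. Tfam, which packages and transcribes mitochondrial DNA, was at 803 in medium, 875 in IL-21 and 725 in IL-6 + TGFb1, a difference of 0.27 between the treated cultures. Tfb2m, the mitochondrial transcription factor B2, was highest (0.32 and 0.20, the former just short of the step). Nrf1 had 0.11 in both, and the coactivator gene Ppargc1a was below the brightness level, at 62.4, 64.6 and 62.4.

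The 17 TCA cycle genes had medians of -0.01 and 0.00 and none past the 25% step. Over all compared genes the shares past it were 8.6% above and 3.18% below medium with IL-21. They were 9.32% and 3.0% with IL-6 + TGFb1, and 17 genes cannot tell 0 from such shares. Cs, citrate synthase, had 0.06 and 0.09, and Dld, the shared dehydrogenase subunit, -0.25 with IL-6 + TGFb1. Of 77 mitochondrial ribosome genes 1 (1.3%) was past the step above medium in each treated culture, Mrpl22 (0.43 and 0.37). Both shares lay below the background, as did those of the respiratory chain genes. The medians of the 77 genes were 0.04 and 0.00. Mrpl47 was 0.33 higher with IL-21 than with IL-6 + TGFb1, the 1 gene (1.3%) past the step there, against 3.05% of all compared genes. Of 54 cytosolic ribosome genes 0 were past the step with IL-21. With IL-6 + TGFb1 2 (3.7%) were higher, Rpl14 (0.48) and Rpl30 (0.35), and 1 (1.85%) was lower, Rps3a1 (-0.35). The medians were 0.00 and 0.01. Differences between these lists and the respiratory chain genes were not tested.

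**Figure D5:**
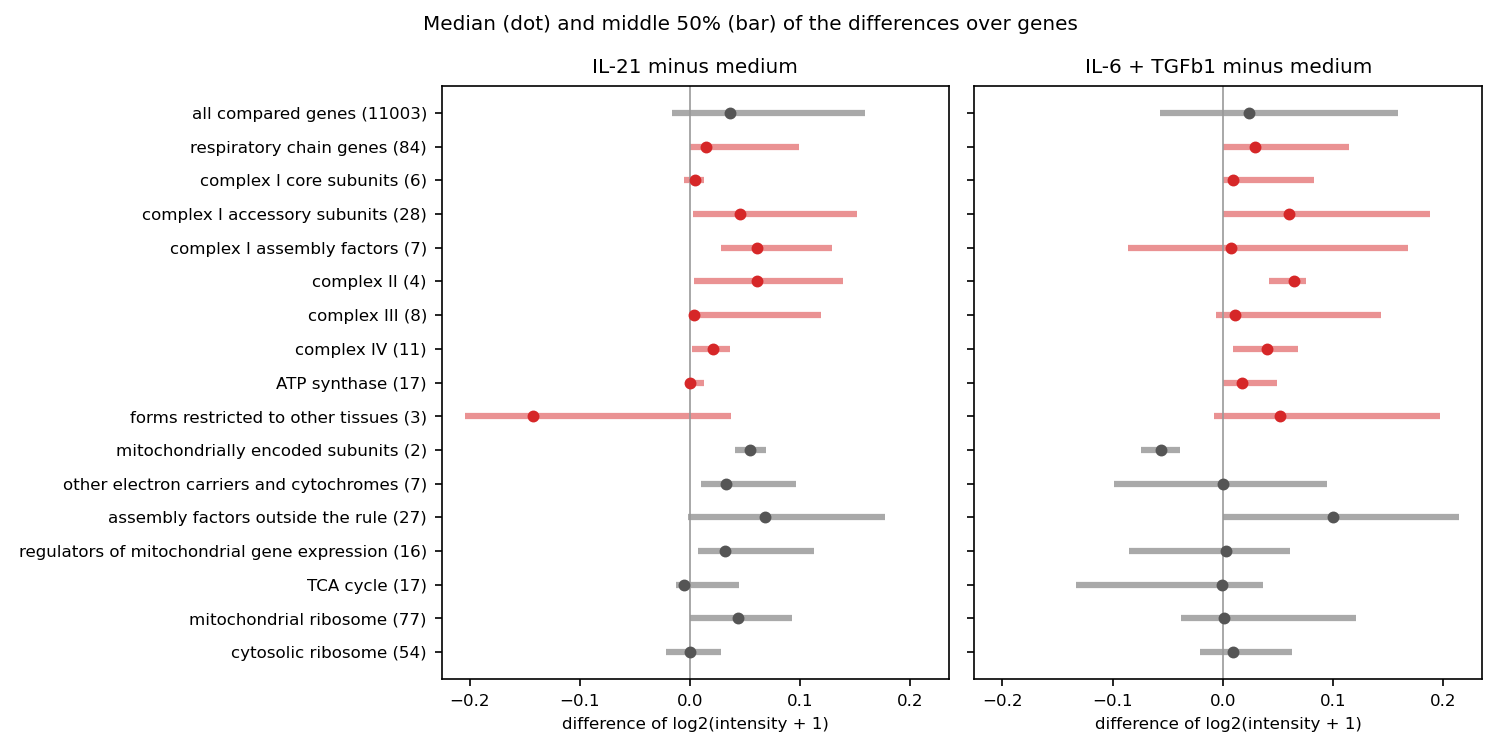
Median (dot) and middle 50% (bar) of the differences of log2(intensity + 1) over the compared genes of each set, IL-21 minus medium (left) and IL-6 + TGFb1 minus medium (right); respiratory chain sets are red, other sets grey, with the number of genes in parentheses. Medians of the respiratory chain complexes lie between 0.00 and 0.06 on the left and between 0.01 and 0.06 on the right; bars show spread over genes and not replicate error.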

How the data were processed

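RNA from 3 cultures was labelled with an Affymetrix whole-transcript kit and hybridized by a service company, per the labels' protocols. The deposited values are linear intensities of 28815 probe sets. No source used here states how the authors summarized and normalized them. The submitters' processing notes name mm8, and no coordinates on it were used. Of the probe sets, 21780 had 1 gene symbol in the platform annotation, 1605 several and 5430 none listed. Only the first were used, and 6 of those with several symbols named a respiratory chain gene. The probe set with the highest mean stood for a gene. No further normalization was applied. Calculations used Python 3.11.15 with pandas 2.3.3 and numpy 2.4.6, and were tested on simulated data.

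Genes named were, in each comparison, the 8 highest and 8 lowest members, every member past the 25% step, complex II, tissue-restricted forms, members with several probe sets, and a part of the 2 highest and 2 lowest genes of the other lists, whose rule held more genes than are named. Further members and list genes were named after their values were seen, as examples of their complex or list. The members and lists were chosen with earlier results of these data known. The number of arrays limits the precision. The 7 alternatives covered the pseudocount, quantile normalization, median centring, a floor, the brightness filter and the choice of probe set.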

Additional observations from a re-analysis of the deposited data

How the results depend on the processing

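Over 7 alternatives, 58 of 63 recomputed medians and counts stayed near their reported value. For a median this means within the typical gap between probe sets of a gene (0.06 with IL-21). The medians themselves were smaller than that gap, so a turned sign also counted as near. Counts that were close, such as 6 in place of 5, counted as near too. The floor of 69.0 lay below all values of the compared members, so it could not change their results. With each array centred on its median, the median with IL-21 was 0.0803 and 4 genes were past the 25% step above medium, Ndufa11, Ndufaf3 and Uqcr10 beside Ndufa1. Centring also took the share of all compared genes past the step above medium with IL-21 from 8.6% to 13.3% and that below from 3.18% to 1.92%, and quantile normalization gave 5.73% and 3.43%. With the brightness filter at the 75th percentile, 0 genes were past it above medium in the IL-21 culture and 3 in that with IL-6 + TGFb1, since fewer genes were compared. With no brightness filter 1 gene, the dim Cox8b, was at least 20% lower with IL-21. Of single genes, Ndufb7 fell short of the step with quantile normalization (0.31). Scaling turned the sign of 27 of the 66 differences with IL-21 that were not exactly 0. It turned 12 of 75 such differences with IL-6 + TGFb1 and 29 of 75 between the treated cultures. The largest of those turned was 0.08. No paired analysis was possible because each group had 1 array. Dim genes are measured least well.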
